A study of Mus musculus with 6 samples.

Results

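Hypertrophic and prehypertrophic cartilage of the mouse femoral growth plate were compared on 4 one-colour miRNA microarrays, 2 per zone, out of 6 arrays in the whole study. The arrays were chosen by the growth plate zone given for each sample, and all 690 mouse miRNAs on them were read. Every sample came from C57BL/6 mice aged 12 days, without any treatment named. Each array carried 100 ng of Cy3-labelled total RNA from microdissected tissue in which 5 growth plates had been pooled, so a value is a mean over a pool. The labels do not tell which animals entered which pool, and p-values measure the spread between these pooled samples, which may be partly technical. The other 2 arrays hold the proliferative zone. They helped to estimate the spread, and their values stand beside some results.

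In the growth plate, chondrocytes stop dividing, enter a prehypertrophic stage and then swell into hypertrophic cells, whose matrix calcifies and is invaded by vessels before bone is laid down. A miRNA is a short RNA cut from a hairpin. One or both arms of the hairpin can persist, and bases 2 to 8 of the mature RNA, the seed, do most of the pairing with target mRNAs, so miRNAs with one seed are grouped as a family. In cartilage, miR-140 is the best known miRNA, made from an intron of Wwp2 and needed for normal long bone growth. miR-451 is abundant in red blood cells, and miR-126 comes from an intron of Egfl7, a gene of endothelial cells. A star after a name marks the arm that was taken as the minor one when the array was designed.

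The mature sequences of the miRNAs with the larger differences are shown first, since several share a seed. They are RefSeq entries on the mouse assembly GRCm38.p6, written 5′ to 3′ with the seed in capitals, and 29 of the 33 names looked up had an entry. miR-2132, miR-2138, miR-199b* and miR-140 are given by name only. The first set holds miRNAs whose signal was higher in the hypertrophic zone, with the 3 tested major arms of the miR-181 family together.
miR-451: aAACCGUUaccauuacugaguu
miR-126-3p: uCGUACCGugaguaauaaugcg
miR-21: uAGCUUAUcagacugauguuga
miR-2137: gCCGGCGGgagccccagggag
miR-181a: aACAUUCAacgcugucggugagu
miR-181b: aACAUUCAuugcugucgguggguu
miR-181d: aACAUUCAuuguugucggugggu
The mature sequence of miR-451 lies at chr11:78073186-78073207 on the plus strand. That of miR-126-3p lies at chr2:26591402-26591423 on the plus strand within Egfl7. For miR-21 it lies at chr11:86584120-86584141 on the minus strand within Vmp1. miR-2137 lies at chrX:72992113-72992133 on the plus strand, within the span of Zfp185. The mature miR-181b and miR-181d match at 22 of 23 positions counted from the 5′ end, miR-181a and miR-181b at 20 of 23, so signals of these 3 miRNAs may not be fully separable on an array.

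The second set holds miRNAs whose signal was lower in the hypertrophic zone, with relatives that share their seed or hairpin.
miR-140*: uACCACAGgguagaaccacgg
miR-455: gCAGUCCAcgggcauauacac
miR-210: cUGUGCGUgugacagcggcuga
let-7b: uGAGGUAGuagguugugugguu
let-7d: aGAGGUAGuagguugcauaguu
miR-98: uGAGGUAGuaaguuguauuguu
miR-199a-5p: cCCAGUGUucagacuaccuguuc
miR-199a-3p: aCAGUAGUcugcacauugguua
miR-351: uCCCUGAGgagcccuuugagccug
miR-125a-5p: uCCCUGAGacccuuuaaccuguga
miR-322*: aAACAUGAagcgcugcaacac
miR-322: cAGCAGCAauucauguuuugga
miR-497: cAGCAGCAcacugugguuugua
miR-15b: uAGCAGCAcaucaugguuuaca
miR-195: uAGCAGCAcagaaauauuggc
miR-16: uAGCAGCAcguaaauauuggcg
miR-15a: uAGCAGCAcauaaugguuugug
In this set the last 6 share the seed AGCAGCA, let-7b, let-7d and miR-98 share GAGGUAG, and miR-351 and miR-125a-5p share CCCUGAG.

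The arrays were of similar quality. On the 4 arrays, 25.7% to 27.9% of miRNA spots were well above background by the scanner's flag. A miRNA was tested if both arrays of some zone had its brightest probe well above background, which left 226 of the 690. Both prehypertrophic arrays detected 205 miRNAs in this way, both hypertrophic arrays 216, and all 4 arrays 198. Across the 226, log2 signals correlated at 0.976 between the prehypertrophic arrays, 0.974 between the hypertrophic arrays, and 0.939 to 0.965 across zones. These values are across miRNAs, which are no replicates, and serve as description. All arrays shared a slide and scan day. The hypertrophic pair occupied row 1 of that slide and the prehypertrophic pair row 2, so zone and row cannot be told apart from these 4 arrays. The proliferative zone had 1 array in each row. There the difference between rows had a median of -0.11 log2 units, and over the 226 miRNAs it correlated at -0.39 with the difference between the hypertrophic and prehypertrophic zones. The signs were shared by 51 of the 226. A term for the row rests on that proliferative pair alone, whose arrays also differ in title number. It therefore cannot separate row from other differences between those arrays. With this term each list median kept its sign, apart from that of the names that resemble tRNA fragments. The medians that lay below 0 lay further below it, for example -1.02 for let-7 with miR-98 and -1.21 for miR-199 with miR-214. The median of all tested miRNAs was then 0.19, in place of -0.04 without the term.

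Signals are given as log2 of the scaled processed signal, after each array was brought to one 75th percentile, with a floor of 3.66. Differences are hypertrophic minus prehypertrophic on that log2 scale. Adjusted p-values are from limma with Benjamini-Hochberg adjustment over the 226 miRNAs. At an adjusted p under 0.05, 3 miRNAs (1.33% of those tested) were called. All 3 were higher in the hypertrophic zone, and 0 were called lower. At an unadjusted p under 0.05, 19 (8.41%) lay higher and 14 (6.19%) lower. The difference was above 0 for 110 miRNAs (48.7%) and below 0 for 116 (51.3%), with a median of -0.04. That median was 0.10 without scaling and -0.16 when the 75th percentile was taken over every probe, so differences read by their sign alone shift with the scaling by up to that much. At least a 2-fold difference was seen for 9 miRNAs that were higher (3.98%) and for 1, miR-322*, that was lower (0.442%). Both hypertrophic arrays lay above both prehypertrophic arrays for 77 miRNAs (34.1%) and below both for 74 (32.7%).

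**Figure D1:**
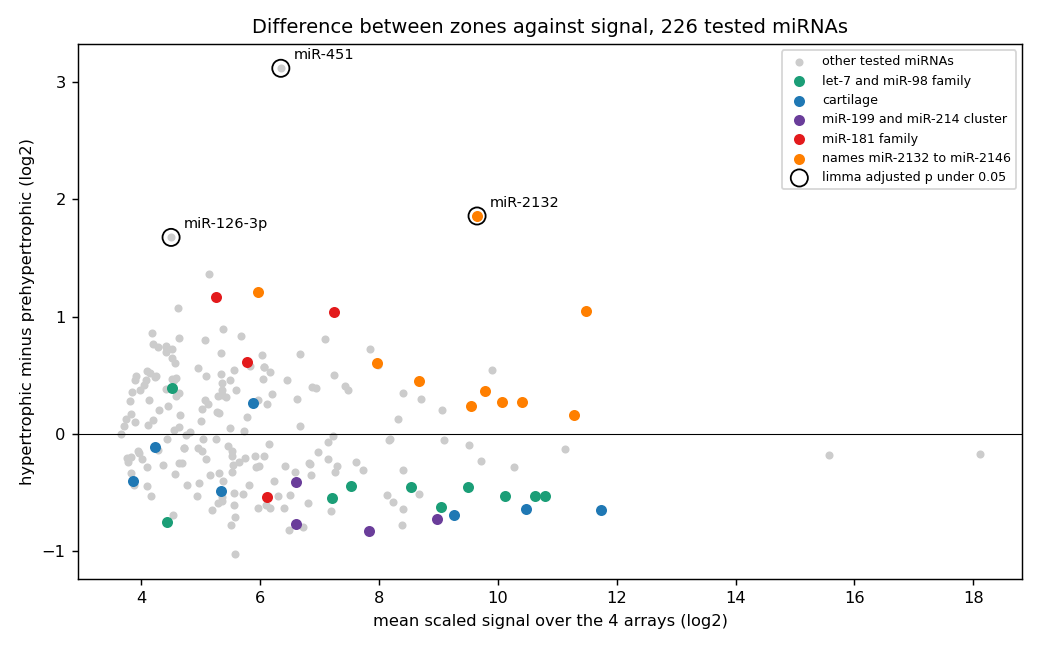
Difference in log2 scaled signal (hypertrophic minus prehypertrophic, vertical axis) against the mean log2 scaled signal over the 4 arrays (horizontal axis) for the 226 tested miRNAs, with members of 5 lists coloured and the 3 miRNAs at an adjusted p under 0.05 ringed. miR-451, miR-2132 and miR-126-3p stand highest, the let-7 and cartilage members lie mostly near -0.5, and the lowest point is miR-322* at -1.03.

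The size of the difference varied with the signal. With the tested miRNAs split into 4 parts of 56 or 57 by mean signal, the median difference from the dimmest to the brightest part was 0.20, 0.03, -0.22 and -0.17. The median of all tested miRNAs, set beside list medians below, is -0.04. Lists of bright miRNAs are thus set beside a value above that of miRNAs of like signal. Within a zone, the median SD of the 2 arrays was 0.15 for the prehypertrophic and 0.20 for the hypertrophic zone. For 138 miRNAs a further probe was well above background on all 4 arrays, and its difference had the same sign as that of the brightest probe for 130 of them, with a median gap of 0.06 log2 units.

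miR-451, a miRNA of red blood cells and their precursors, rose most. Its log2 signal was 4.84 and 4.74 on the prehypertrophic arrays and 7.82 and 7.99 on the hypertrophic arrays. Both hypertrophic values stood far above both prehypertrophic values, and the gap was many times the spread within either zone. The difference was 3.12 (SE 0.25, adjusted p = 3.36e-05), which is 8.68-fold. The other probe of miR-451 gave a difference of 3.15. Over the other settings the difference ran from 1.84, with normexp, to 3.26, and the call was lost in the authors' table (difference 2.92, adjusted p = 0.0998). In the proliferative zone it was at 3.79 and 3.66, with 1 of the 2 arrays well above background.

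miR-2132, an array name for which no RefSeq entry was found, also rose. Its signal went from 8.58 and 8.86 on the prehypertrophic arrays to 10.64 and 10.52 on the hypertrophic arrays, without overlap. The difference was 1.86 (SE 0.27, adjusted p = 0.0042), which is 3.63-fold, and its other probe gave 1.40. The proliferative arrays, at 8.52 and 8.96, lay about where the prehypertrophic arrays did. The call was lost with slide row as a term, where the difference was 2.30 and the adjusted p 0.095, and without either hypertrophic array (adjusted p = 0.25 and 0.27).

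miR-126-3p, the endothelial miRNA, was not well above background on either prehypertrophic array, which both stood at the floor of 3.66, nor on either proliferative array. On the hypertrophic arrays it was well above background at 5.12 and 5.56. Hypertrophic cartilage was thus at least 3.15-fold higher in miR-126-3p (adjusted p = 0.0052), taking the dim side at the lowest signal well above background. The p-value leaves the spread of the dim arrays unmeasured, since the floor set it to 0. The other probe was also well above background on the hypertrophic arrays alone, with a difference of 1.04. For the brightest probe the limma difference was 1.68. It was 0.68 with the floor multiplied by 2 (adjusted p = 0.38), so the size of the difference depends on the floor. Over 22 other settings the call held in 13. It was lost with slide row as a term (adjusted p = 0.10) and without either hypertrophic array (adjusted p = 0.087 and 0.23).

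**Figure D2:**
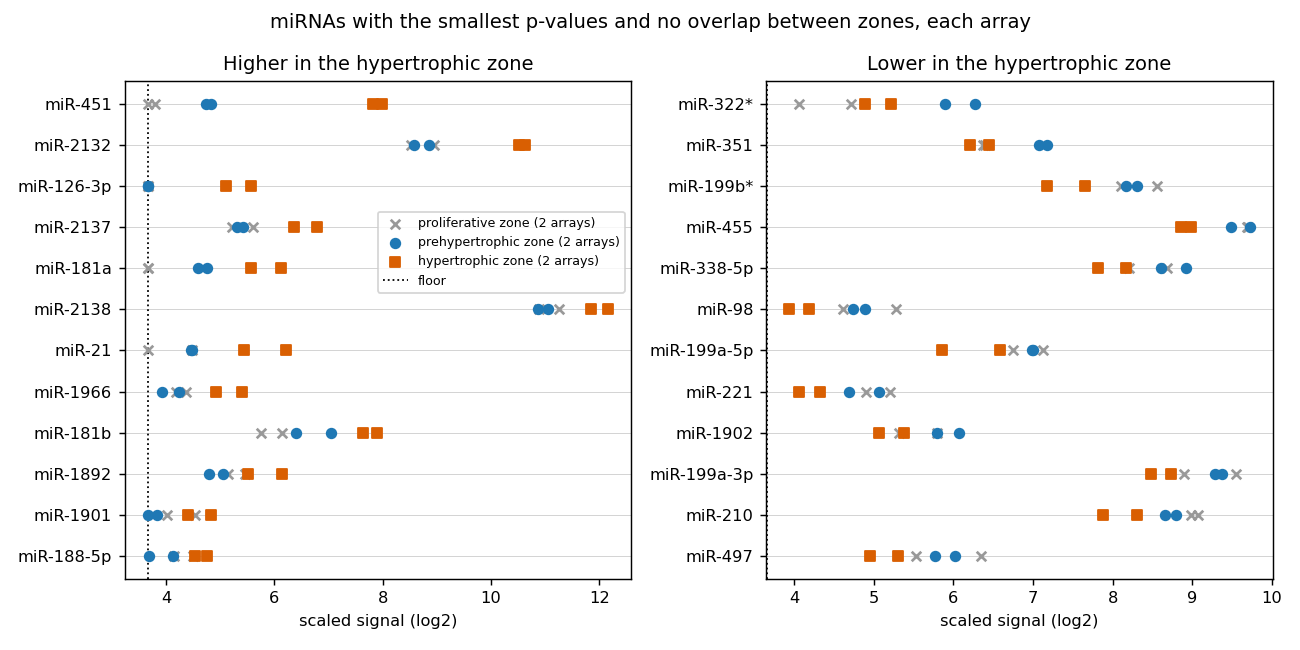
Log2 scaled signal on each array (horizontal axis) of the 12 miRNAs with the smallest p-values among those higher (left) and lower (right) in the hypertrophic zone without overlap between the zones. Circles are prehypertrophic, squares hypertrophic and crosses proliferative arrays, 2 each, and the dotted line is the floor at 3.66. miR-451 shows the widest gap, from 4.84 to 7.82 between the nearest arrays, while each gap between the nearest arrays in the right panel is under 1 log2 unit.

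miRNAs of other cell types that the dissected tissue could hold were read alongside. Of 9 miRNAs of blood and marrow, 2 were tested. Besides miR-451, miR-223, a myeloid miRNA, was at 3.97 and 3.66 on the prehypertrophic and 4.28 and 4.90 on the hypertrophic arrays. Its difference was 0.77 (SE 0.29, adjusted p = 0.27), and it was well above background on 1 prehypertrophic and both hypertrophic arrays. The white cell miRNAs miR-142-3p, miR-142-5p, miR-150 and miR-155, and miR-144, the partner of miR-451 in the same transcript, were below that mark on all arrays, and miR-486 and miR-150* passed it on 1 hypertrophic array each. The scaled signal of the list was summed on each array over the members well above background there. It was 44.3 and 26.7 on the prehypertrophic and 280 and 284 on the hypertrophic arrays. miR-223 entered the sum on 1 prehypertrophic array only, and miR-486 and miR-150* on no prehypertrophic array. Signal below the mark counts as 0, so the gap between the sums depends in part on that rule. For the endothelial pair the sum over members well above background was 0 and 0 against 34.7 and 47.2, all from miR-126-3p, since miR-126-5p was flagged as such nowhere. The 0 and 0 follow from the same rule and add nothing to the detection of miR-126-3p given above. The part of blood and vessel cells in the differences was not tested. In such bulk samples, fewer cells of a type and less RNA per cell cannot be told apart.

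Of the other marker lists, no member was called. No member of the smooth muscle, osteoblast, liver or inflammation lists, and none of the miR-34 and miR-449 family, was well above background on any of the 4 arrays. Of the nerve list 1 member was, on 1 array per zone, and none was tested. The skeletal muscle list had 1 tested member of 8, miR-208b, at 7.26 and 6.81 against 6.71 and 6.67 (adjusted p = 0.42), while miR-1, miR-133a and miR-133b were not well above background anywhere. Of the epithelial list, miR-429 differed by -0.57 (adjusted p = 0.31) and miR-205 by 0.42 (adjusted p = 0.38). The cartilage miRNAs miR-140 and miR-140* were well above background on every array, with log2 signals of 9.94 and above, so the marker of the labelled tissue was present in both zones.

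miR-21, a miRNA induced in many tissues during growth and repair, was at 4.46 and 4.47 on the prehypertrophic arrays and at 5.45 and 6.21 on the hypertrophic arrays. The zones did not overlap, but the hypertrophic arrays lay far apart. The difference was 1.36 (SE 0.35) and missed the threshold (adjusted p = 0.082). Only its brightest probe was well above background. miR-22 was at 8.13 and 8.36 against 8.31 and 8.45, a difference of 0.13 (adjusted p = 0.74) with overlapping zones.

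The miR-181 family lay on the higher side through its major arms. miR-181a, known from T cells and from muscle and blood cell differentiation, was at 4.58 and 4.76 on the prehypertrophic and 5.56 and 6.12 on the hypertrophic arrays. Its difference of 1.17 (SE 0.27) missed the threshold (adjusted p = 0.070). miR-181b, transcribed with it at both of its loci, was at 6.40 and 7.04 against 7.64 and 7.89, a difference of 1.04 (SE 0.30, adjusted p = 0.14). miR-181d was at 5.15 and 5.79 against 6.2 and 5.97, a difference of 0.61 (adjusted p = 0.28). The zones did not overlap in these 3, as in 34.1% of all tested miRNAs in this direction, and lack of overlap was part of the rule that named miR-181a and miR-181b. The opposite arm of one miR-181a hairpin, miR-181a-1*, lay the other way. It was at 6.15 and 6.62 against 5.81 and 5.89, a difference of -0.54 (adjusted p = 0.28).
miR-181a-1*: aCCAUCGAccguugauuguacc
Its sequence lies in the same hairpin as miR-181a at chr1:137966508-137966529, while miR-181a is also made from a second hairpin within the span of Nr6a1 on chromosome 2. Over the 4 tested members of 6 on the array, 0 were called and the median difference was 0.83, beside -0.04 for all tested miRNAs. Over the 23 other settings that median ran from 0.38 to 1.11.

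All 10 tested members of the block of array names from miR-2132 to miR-2146 lay higher in the hypertrophic zone, 9 without overlap, beside 34.1% of all tested miRNAs. Only miR-2132 was called. miR-2137 was at 5.31 and 5.41 against 6.79 and 6.37, a difference of 1.21 (SE 0.27, adjusted p = 0.067), and 0.64 by its other probe. miR-2138 was at 10.87 and 11.05 against 12.17 and 11.85, a difference of 1.05 (SE 0.27, adjusted p = 0.082). miR-2137 passed with median scaling (adjusted p = 0.044), without scaling (adjusted p = 0.030) and with the run of title numbers as a term (adjusted p = 0.039). miR-2138 passed with normexp (adjusted p = 0.0045), without scaling (adjusted p = 0.044) and with the run as a term (adjusted p = 0.046). miR-2133 differed by 0.61 (adjusted p = 0.28), and the median of the list was 0.41, running from 0.25 to 0.86 over the other settings. For miR-2132, miR-2137 and miR-2138 the row 1 proliferative array lay below the row 2 array, with differences of -0.44, -0.38 and -0.37. These compare single arrays, and the part of the row in the differences between the zones cannot be told.

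Further miRNAs with small p-values on the higher side were dim. miR-1966 was at 4.24 and 3.93 against 5.39 and 4.91, a difference of 1.07 (SE 0.28, adjusted p = 0.082). miR-1892 differed by 0.90, miR-1901 by 0.87 and miR-188-5p by 0.74, with adjusted p-values from 0.22 to 0.27. None of these 4 passed the threshold. They were named among miRNAs whose zones did not overlap. miR-1966 passed without scaling (adjusted p = 0.044).

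Of the 7 tested cartilage miRNAs, 6 lay on the lower side, and 0 were called. The arm miR-140* was at 12.07 and 12.06 on the prehypertrophic arrays and 11.22 and 11.60 on the hypertrophic arrays. The other arm, miR-140, was at 10.79 and 10.78 against 9.94 and 10.35. Both arms were lower on both hypertrophic arrays, with differences of -0.65 (SE 0.31) and -0.64 (SE 0.30), which did not pass (adjusted p = 0.28 for each). miR-455, made from an intron of the collagen gene Col27a1, was at 9.49 and 9.72 against 8.98 and 8.86, a difference of -0.69 (SE 0.25, adjusted p = 0.27). Its star arm miR-455* was at 5.54 and 5.62 against 4.86 and 5.32, a difference of -0.49 (adjusted p = 0.28). miR-675-3p, cut from the imprinted transcript H19, was at 4.10 and 4.03 on the prehypertrophic arrays, and on the hypertrophic arrays it stood at the floor and was not well above background.

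miR-365 differed by -0.11, and by 0.038 without scaling. The seventh, miR-193b, lay the other way by 0.26 without overlap, and at -0.28 with slide row as a term. Of the 6 lower members, 5 lay without overlap, beside 32.7% of all tested miRNAs. Among them, miR-140 and miR-140* share a hairpin, as do miR-455 and miR-455*, so the members do not count as independent measurements. The list median was -0.49. It stayed below 0 over the 23 other settings, from -0.85 to -0.22. miR-210, the main miRNA induced by hypoxia, was at 8.80 and 8.66 against 7.88 and 8.30, a difference of -0.64 (SE 0.26, adjusted p = 0.27) without overlap.

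The let-7 and miR-98 family, whose major arms share the seed GAGGUAG and act against growth and stem cell genes, had no called member. let-7d was at 9.38 and 9.34 on the prehypertrophic and 8.65 and 8.83 on the hypertrophic arrays, a difference of -0.62 (SE 0.27, adjusted p = 0.28). let-7b was at 10.87 and 10.89 against 10.29 and 10.42, a difference of -0.53 (SE 0.25, adjusted p = 0.28). let-7e was at 7.46 and 7.50 against 6.96 and 6.92, a difference of -0.54. miR-98 was at 4.89 and 4.74 against 3.94 and 4.19, a difference of -0.75 (SE 0.29, adjusted p = 0.27). Of 10 tested members, 9 lay lower, each without overlap, beside 32.7% of all tested miRNAs. The exception, a star arm, differed by 0.39. The median was -0.52, from -1.02 to -0.38 over the other settings. Major arms of the family differ by few bases (let-7b matches let-7e and miR-98 at 19 of 22 positions each). Their probes may thus share signal, and they do not count as independent measurements.

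The miR-199 and miR-214 group is typical of mesenchymal cells, and 1 pair of its hairpins is transcribed from the strand opposite to Dnm3. All 4 tested members were lower without overlap, beside 32.7% of all tested miRNAs. Among them, miR-199a-5p and miR-199a-3p are arms of the same hairpins, so the members do not count as independent measurements. miR-199b* was at 8.30 and 8.17 against 7.17 and 7.65, a difference of -0.83 (SE 0.28, adjusted p = 0.24). miR-199a-5p was at 6.99 and 6.99 against 5.86 and 6.59, a difference of -0.77 (SE 0.30). miR-199a-3p was at 9.28 and 9.37 against 8.49 and 8.73, a difference of -0.72 (SE 0.29). miR-214 was at 6.64 and 6.98 against 6.29 and 6.50, a difference of -0.41 (adjusted p = 0.34). For miR-199a-5p and miR-199a-3p the adjusted p was 0.27. The list median was -0.75, from -1.21 to -0.50 over the other settings, and 0 members were called.

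**Figure D3:**
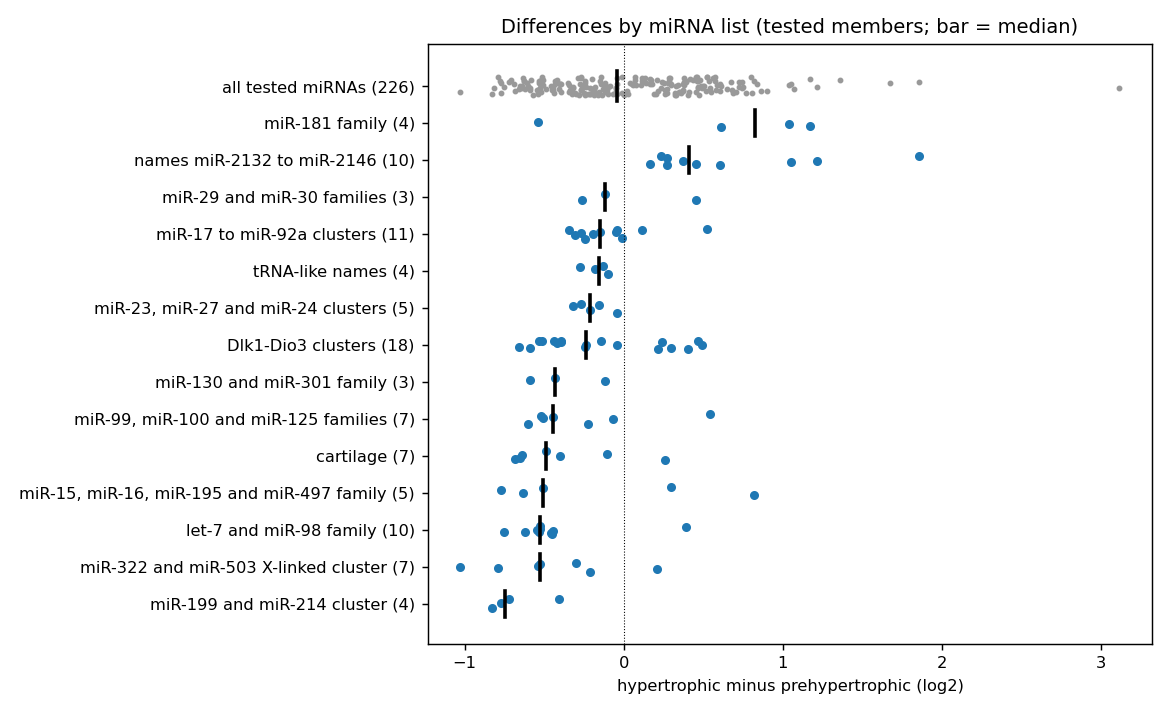
Difference in log2 scaled signal (hypertrophic minus prehypertrophic, horizontal axis) of each tested member of the lists with at least 3 tested members, with the number tested in brackets and a bar at each median. The miR-181 family and the block of names from miR-2132 to miR-2146 have medians of 0.83 and 0.41, the miR-199 and miR-214 cluster lies lowest at -0.75, and all 226 miRNAs have a median of -0.04.

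The X-linked cluster that holds miR-322, called miR-424 in humans, with miR-503 and miR-351 was mixed. miR-322 was at 8.94 and 8.98 against 9.02 and 9.32, a difference of 0.21 (SE 0.28, adjusted p = 0.64) that became -0.38 with slide row as a term. Its star arm from the same hairpin, miR-322*, was at 5.89 and 6.27 against 4.89 and 5.22, a difference of -1.03 (SE 0.30, adjusted p = 0.15) without overlap. Only the brightest of its 4 probes was well above background on all 4 arrays. miR-351 was at 7.17 and 7.07 against 6.21 and 6.44, a difference of -0.79 (SE 0.25, adjusted p = 0.19). miR-542-3p differed by -0.54, and miR-503 by -0.30 (adjusted p = 0.47). The mature sequences of miR-322, miR-503 and miR-351 lie close together on the minus strand. miR-322 is at chrX:53054306-53054327, miR-503 at chrX:53054027-53054049 and miR-351 at chrX:53053315-53053338. Of 7 tested members of 11, 6 lay lower, 5 without overlap, beside 32.7% of all tested miRNAs. The median was -0.53, beside -0.04 for all tested miRNAs. None passed the threshold.

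Among miRNAs with the seed AGCAGCA the signs were split. miR-497 was at 6.02 and 5.77 against 4.95 and 5.30, a difference of -0.77 (SE 0.32, adjusted p = 0.27). miR-195, its neighbour on chromosome 11, differed by -0.51, and miR-15b, on chromosome 3, by -0.63. miR-15a was at 4.20 and 4.25 against 4.66 and 5.43, a difference of 0.82 (SE 0.38, adjusted p = 0.28). miR-16, made from hairpins beside both miR-15a and miR-15b, differed by 0.30 (SE 0.33, adjusted p = 0.57). None passed the threshold. With slide row as a term the differences of miR-15a and miR-16 were -0.25 and -0.58, so their sign is not settled. For miR-15a, miR-15b and miR-195 the row 1 proliferative array lay 0.91 to 1.07 above the row 2 array.

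Other lists held 0 called members. miR-127, miR-299* and miR-329, from the imprinted Dlk1-Dio3 region that is active in fetal tissue, differed by -0.66, -0.59 and -0.53, with adjusted p-values of 0.28 each. Of 18 tested members of that region 12 lay lower, with a median of -0.24. In the miR-99, miR-100 and miR-125 families 6 of 7 lay lower, with a median of -0.44. miR-100 differed by -0.60, miR-99a by -0.52 and miR-125a-5p by -0.51, while miR-99b* differed by 0.54. The metabolic pair miR-103 and miR-107 differed by -0.63 and -0.53, and miR-130a by -0.59. The Hox cluster miRNA miR-196a differed by -0.53. In the miR-17 to miR-92a clusters, known for promoting cell division, 9 of 11 lay lower with a median of -0.15, from -0.34 for miR-93 to 0.53 for miR-92a*. The 5 tested members of the miR-23, miR-27 and miR-24 clusters lay between -0.32, for miR-23b, and -0.04, and their median of -0.21 became 0.08 without hypertrophic replicate 1. In the miR-29 and miR-30 families, with 3 tested, the median of -0.12 became 0.02 without scaling, and the 0.46 of miR-29a became -0.76 with slide row as a term. The median of the 4 tested names that resemble tRNA fragments was -0.15, and 0.39 with slide row as a term.

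Among single miRNAs outside these groups, miR-338-5p, from an intron of Aatk, was at 8.92 and 8.61 against 8.16 and 7.82, a difference of -0.77 (SE 0.28, adjusted p = 0.27). miR-221, which acts on cell cycle inhibitors, was at 4.69 and 5.07 against 4.07 and 4.32, a difference of -0.69 (SE 0.27, adjusted p = 0.27). miR-1902 differed by -0.71 (SE 0.28, adjusted p = 0.27). All 3 were named among miRNAs whose zones did not overlap.

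Detection itself differed for few miRNAs. On both hypertrophic and no prehypertrophic array, 8 miRNAs were well above background. Besides miR-126-3p these were miR-183, miR-1898, miR-1957, miR-2183, miR-669h-5p, miR-692 and miR-721, which lay close to the floor. Taken on zone means in the main setting, the bounds for these 7 ran from 1.04-fold for miR-692 to 1.39-fold for miR-1957. They do not hold array by array. miR-669h-5p was at 3.77 and 3.72 on the prehypertrophic and 4.18 and 3.66 on the hypertrophic arrays. miR-2183 was at 3.66 and 3.69 against 3.95 and 3.66. The differences of miR-669h-5p, miR-2183 and miR-692 lay below 0 in the authors' table and with normexp. On both prehypertrophic and no hypertrophic array, miR-154, miR-1930 and miR-675-3p were well above background. None of these apart from miR-126-3p passed the threshold. miR-1957 passed with the total signal per miRNA (adjusted p = 0.023) and with the authors' table (adjusted p = 0.0496). Of the 690 miRNAs, 444 were well above background on none of the 4 arrays.

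The arrays can also be set side by side within each run of title numbers (14 and 15, then 17 and 18), although no label calls a run a batch. miR-451 differed by 3.15 in one run and 3.08 in the other, miR-2132 by 1.94 and 1.77, and miR-126-3p by 1.90 and 1.45. Among those below them evenness varied: miR-181a differed by 1.54 and 0.80, miR-21 by 1.75 and 0.97, and miR-322* by -0.68 and -1.37. miR-2137 was more even, at 1.06 and 1.37, as was miR-2138, at 0.99 and 1.12. Over the 226 miRNAs the differences of the runs correlated at 0.56 and had the same sign for 179. With the run as a term, 5 miRNAs were called in place of 3, miR-2137 and miR-2138 being added.

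**Figure D4:**
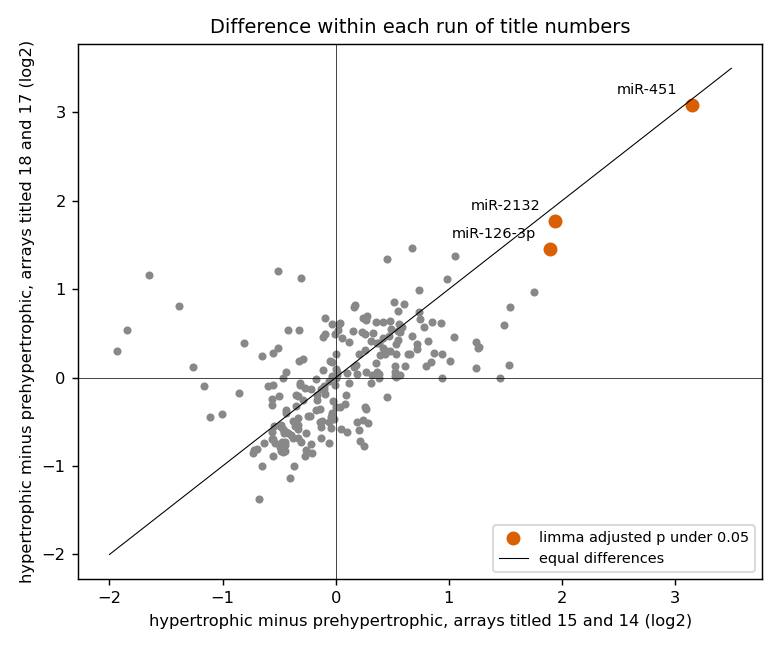
Difference in log2 scaled signal (hypertrophic minus prehypertrophic) between the arrays with title numbers 15 and 14 (horizontal axis) and between those with 18 and 17 (vertical axis) for the 226 tested miRNAs, with the line of equal differences. The 3 called miRNAs lie near the line at the upper right, and 179 of the 226 have the same sign in both.

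This comparison is the second step of chondrocyte maturation; the first, from the proliferative to the prehypertrophic zone, used the same prehypertrophic arrays. A limma contrast tested whether the difference at the later step departed from that at the earlier step, and 4 miRNAs passed (1.77% of those tested). The earlier step itself had 5 called miRNAs (2.21%). For miR-451 the earlier step was 1.06 (adjusted p = 0.055) and the later 3.12, 2.05 more (SE 0.43, adjusted p = 0.038). Its proliferative arrays were at 3.79 and 3.66, the latter at the floor, so the earlier step and the departure depend on the floor. For miR-322* the earlier step was 1.70 (adjusted p = 0.012) and the later -1.03. miR-503 differed by 2 at the earlier step (adjusted p = 0.0015) and by -0.30 at the later. miR-181a-1* went from the floor in the proliferative zone to 6.15 and 6.62 in the prehypertrophic zone, and its later step was -0.54. miR-322 rose at the earlier step by 2.10 (adjusted p = 0.0015) and differed by 0.21 at the later one. The test of that departure missed the threshold (adjusted p = 0.11). The count of miRNAs that passed ran from 0 to 7 over the other settings. It was 0 with slide row as a term and without either proliferative or either hypertrophic array.
miR-503: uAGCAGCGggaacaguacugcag
The sequence of miR-503 differs from miR-322 within the seed, and both come from the X-linked cluster described above.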

How the data were processed

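The arrays were designed from miRBase version 14. Per the file headers, Feature Extraction 10.7.3.1 gave a background-subtracted spot intensity on a linear scale with flags for outlier spots and for signal well above background. The authors' deposited log2 table equals, array by array, their total signal per miRNA, clipped at 1 and taken as log2, less a constant for that array. Scale, centring and direction are thus known. Column medians were -4.399 and -4.254 (proliferative), -4.460 and -4.455 (prehypertrophic) and -4.689 and -4.943 (hypertrophic).

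Control and outlier-flagged spots (384 to 515 of 13800 per array) were dropped and spots averaged per probe. No spot was saturated. Each array was divided by its 75th percentile over the 342 probes (17.7%) well above background on all 6 arrays, and a floor of 12.7 scaled units was set before log2. A bound took, per dim array, the probe's own signal or the lowest well above background, whichever was higher. limma 3.58.1 in R 4.3.3 used all 6 arrays and zone alone (3 residual and 7.19 prior degrees of freedom) and was tested on simulated data. The number of arrays limits the precision.

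The title numbers form 2 runs with 1 array per zone. As a check of pairing, run-to-run differences of the zones were correlated over miRNAs: 0.58 for proliferative with prehypertrophic, 0.73 for proliferative with hypertrophic and 0.25 for the zones compared here. No label says what a run is, so arrays were not paired.

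Alternatives changed the scaling, background, source of values, probe summary, floor, filter, samples, blocks and spread model. Normexp used each spot's median signal. Members and lists were chosen with earlier results of these data known. Named miRNAs are those called, the 12 smallest p-values per direction without overlap, up to 4 members per list, those detected in 1 zone, and some cartilage, blood and vessel miRNAs. miR-16, miR-503, miR-193b and miR-365 were added after their values were seen.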

Additional observations from a re-analysis of the deposited data

Results flagged for a closer look

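For 4 miRNAs the later step of maturation departed from the step before it, by a limma contrast of the 2 differences that share the prehypertrophic arrays. The departure was 2.0538 log2 units for miR-451 (SE 0.43, adjusted p = 0.038), -2.7242 for miR-322* (SE 0.52, adjusted p = 0.033), -3.2652 for miR-181a-1* (SE 0.46, adjusted p = 0.0063) and -2.3015 for miR-503 (SE 0.45, adjusted p = 0.033). miR-181a-1* stood at the floor on both proliferative arrays, so its departure depends on the floor. miR-451 stood at the floor on 1 of them, so its departure depends on the floor in part. No group held enough arrays to look for a single array far from the rest.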

How the results depend on the processing

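Over 23 other settings all calls were higher in the hypertrophic zone. The count of 3 was 1 with the floor multiplied by 2, the mean over all probes, no filter on dim miRNAs, only miRNAs well above background on all arrays, or slide row as a term. It was 5 without scaling and 5 with the replicate block by run of title numbers. Leaving out 1 array gave 1 to 3, with 1 when either hypertrophic array was left out; the lone array is then assumed to vary like the other groups. miR-451 was called in 21 of its 22 other settings, the exception being the authors' table (adjusted p = 0.0998), with differences of 1.84 to 3.26. miR-2132 was called in 17 of 23 and miR-126-3p in 13 of 22. The count of 4 for the departure between the steps was 0 with the 75th percentile of all probes, without scaling, without the filter and with slide row as a term. It was 1 with the floor multiplied by 2, median scaling, outlier spots kept, quantile normalization, miRNAs well above background on all arrays and the replicate block by run, and 7 with the authors' table. Leaving out 1 array gave 0 to 1.

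None of the miRNAs that reversed was called. Slide row as a term rests on the proliferative pair alone. With that term the difference was -0.25 for miR-15a, -0.76 for miR-29a, -0.58 for miR-16 and -0.38 for miR-322. It was -0.13 for miR-22, -0.28 for miR-193b and 0.16 for miR-1930. In the authors' table it was -0.0762 for miR-22, -0.12 for miR-669h-5p, -0.10 for miR-2183 and -0.061 for miR-692. With normexp it was -0.061 for miR-669h-5p, -0.034 for miR-2183 and -0.0077 for miR-692, and with the 75th percentile of all probes -0.028 for miR-2183. Without scaling it was 0.038 for miR-365. Leaving out 1 hypertrophic array gave -0.085 to 0.43 for miR-669h-5p and -0.013 to 0.28 for miR-2183, and leaving out 1 prehypertrophic array gave -0.37 to 0.15 for miR-365. The cause was not tested. Of the 73 miRNAs named, 55 kept their direction and side of the threshold throughout. Dim miRNAs near the floor are limited by signal over background.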
